A study of Mus musculus with 24 samples.

Results

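The genes described here are 35 components of the Notch pathway, 35 of the 54752 genes counted in mouse calf muscle. They were chosen by name as 4 receptors, 5 ligands, 3 ubiquitin ligases of ligand endocytosis, 4 glycosyltransferases, 6 genes of receptor proteolysis, 4 genes of the nuclear complex, 6 targets or feedback genes and 3 Deltex genes. Each symbol matched 1 Ensembl gene ID. Of the 35, 34 passed the filter on low counts in every comparison, and Dtx1, with 1 to 12 counts per library, did not.

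RNA was sequenced from the gastrocnemius, a large muscle of the calf, in 24 libraries that form 8 groups of 3. Every animal carried floxed Numb and Numbl alleles (Numb(f/f)/NumbL(f/f)), and those of 4 groups also carried HSA-MCM, a Cre that tamoxifen activates and that the human skeletal actin promoter drives in muscle fibres. Females and males with the transgene, and females and males with the floxed alleles alone (flox), received vehicle or tamoxifen, so that flox animals show the drug without the recombinase. The sources used here give no ages and no dose or timing of tamoxifen. The labels do not say that each library is a separate animal, and the p-values then measure only how far these libraries spread, which may be technical. The 3 libraries of transgene males whose titles read vehicle control carry Tamoxifen in their treatment field. They are placed by title, and called averages of pathway genes are also given without transgene males. The comparisons of transgene males themselves rest on these labels. The titles of flox males read WT.

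The counts came in 3 tables: transgene females, flox females, and all males. A library held 31219445 to 39142101 counts in the first, 36099031 to 43014516 in the second and 21516819 to 29982077 in the third. Values are CPM, counts relative to library size, with sizes scaled over all 24 libraries by edgeR's TMM method. Tests are edgeR's quasi-likelihood F-test over all genes with Benjamini-Hochberg adjustment, and a gene was called at an adjusted p under 0.05. Log2 fold changes carry their standard error (SE). In whole muscle, fewer cells of a type and less RNA per cell cannot be told apart.

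Notch receptors are cut after binding a ligand on a neighbouring cell, first by an ADAM protease and then by gamma-secretase. The freed intracellular domain joins RBPJ and a Mastermind protein to switch on targets such as Hes1 and the Hey genes. Ligand uptake driven by Mind bomb and Neuralized ubiquitin ligases is needed for activation, O-fucose and Fringe sugars tune which ligand is bound, and NUMB is known as an antagonist of the receptors. In muscle the pathway is known for keeping satellite cells, the resident stem cells, quiescent, and for its role in vessels.

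Promoters of 3 members are shown: Lfng and Nrarp are classical Notch targets, and Pofut1 is a member called here by edgeR. Whether RBPJ acts through these windows was not tested. The windows run from 250 bases before to 50 after the gene start in RefSeq (GRCm38.p6), 5′ to 3′ on the gene's strand, with capitals marking the RBPJ core TGGGAA or its reverse complement TTCCCA. The Lfng window is chr5:140607091-140607390 on the plus strand, that of Nrarp is chr2:25180508-25180807 on the plus strand, and that of Pofut1 is chr2:153241282-153241581 on the plus strand.
Lfng: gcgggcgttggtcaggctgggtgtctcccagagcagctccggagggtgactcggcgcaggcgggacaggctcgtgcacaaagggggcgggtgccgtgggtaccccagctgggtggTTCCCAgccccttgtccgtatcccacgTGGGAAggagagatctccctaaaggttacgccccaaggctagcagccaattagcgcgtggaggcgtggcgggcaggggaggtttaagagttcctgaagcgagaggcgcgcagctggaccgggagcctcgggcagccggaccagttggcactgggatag
Nrarp: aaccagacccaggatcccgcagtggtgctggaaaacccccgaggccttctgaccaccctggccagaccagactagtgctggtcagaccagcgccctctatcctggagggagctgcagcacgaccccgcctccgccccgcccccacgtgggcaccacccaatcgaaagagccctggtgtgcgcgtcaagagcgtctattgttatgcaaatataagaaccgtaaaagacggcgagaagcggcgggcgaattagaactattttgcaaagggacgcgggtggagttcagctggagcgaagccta
Pofut1: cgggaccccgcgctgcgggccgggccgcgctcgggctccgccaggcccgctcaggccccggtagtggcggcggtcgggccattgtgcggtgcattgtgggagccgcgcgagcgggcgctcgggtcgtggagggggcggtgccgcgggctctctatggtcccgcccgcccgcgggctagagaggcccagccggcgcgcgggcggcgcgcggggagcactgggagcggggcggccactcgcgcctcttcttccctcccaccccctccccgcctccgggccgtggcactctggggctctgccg
The Lfng window held 2 cores, starting 135 and 108 bases before the gene start, and the other windows shown held 0. The core, searched on both strands, was present for 8 of the 28 members with a promoter used here, 28.6%, against 28.3% of 27025 genes. Mfng, Hes1, Hey1, Heyl, Dtx3 and Dtx4 were not matched, and Mib1 was left out of the search.

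The targeted genes come first. Numb, on chromosome 12, measured 20.7, 23.2 and 23.3 CPM in transgene females after vehicle and 18.6, 18.6 and 19.0 after tamoxifen, and in transgene males 18.1, 19.1 and 20.6 after vehicle and 17.5, 19.8 and 20.4 after tamoxifen. The groups were separate in females and overlapped in males. In flox animals without Cre, Numb was 20.9, 22.3 and 25.1 CPM after vehicle and 17.2, 19.3 and 19.8 after tamoxifen in females, and 17.2, 19.1 and 20.1 against 15.7, 16.1 and 16.5 in males, again separate and lower after the drug. Numbl, on chromosome 7, went the other way: 2.66, 3.11 and 3.79 CPM after vehicle and 3.76, 4.06 and 5.12 after tamoxifen in transgene females, and 3.49, 3.99 and 4.28 against 5.14, 5.25 and 6.50 in flox males. In transgene males Numbl was 2.83, 3.02 and 3.19 against 3.17, 3.46 and 4.72 CPM, and in flox females 2.77, 2.81 and 2.94 against 3.39, 3.89 and 4.04 CPM. The response averaged over the 4 strata of sex and genotype was a log2 fold change of -0.19 ± 0.04 (SE) for Numb (adjusted p = 0.00761) and 0.42 ± 0.08 for Numbl (adjusted p = 0.00261, edgeR). Without transgene males these were -0.25 (adjusted p = 0.00362) and 0.45 (adjusted p = 0.00518, edgeR). The call of Numb was lost without transgene females (-0.17, adjusted p = 0.0853) and over transgene strata only (-0.12, adjusted p = 0.428, edgeR). The transgene response less the flox response, averaged over the sexes, was 0.12 ± 0.09 for Numb (adjusted p = 0.78, edgeR). The counts cover whole genes and the floxed exons are not known from the labels, so these values do not check recombination.

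Levels of the 35 genes spanned a wide range. Per kilobase of exon, which allows genes to be compared, the mean over 24 libraries was highest for the gamma-secretase subunit Psenen at 19.1 CPM per kb, followed by Dtx3, of the Deltex family, at 12.04 and the gamma-secretase subunit Ncstn at 9.21. Psenen exceeded Dtx3 in 18 of the 24 libraries: in transgene females its group means were 1.66 to 1.92 CPM per kb, below both other genes. The lowest were the non-canonical ligand Dlk1 at 0.108, the repressor Hey2 at 0.0737 and Dtx1 at 0.0374 CPM per kb. Among the receptors Notch3, known from vessel walls, led at 3.36 ± 0.62 (SD over 24 libraries), ahead of Notch4 at 1.66 ± 0.30, Notch1 at 1.20 ± 0.28 and Notch2 at 1.15 ± 0.18 CPM per kb. The last 2 lay within each other's spread. Of the ligands Jag2 stood at 6.62 CPM per kb, above Dll4 at 2.20, Jag1 at 1.69 and Dll1 at 1.29. Of the genes listed as targets or feedback genes, Hes1 at 6.22 and Hes6 at 3.56 CPM per kb were highest. Heyl at 1.58, Hey1 at 1.22 and Nrarp at 1.15 followed with overlapping ranges. Whether Hes6 answers to receptor activity was not tested.

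**Figure D1:**
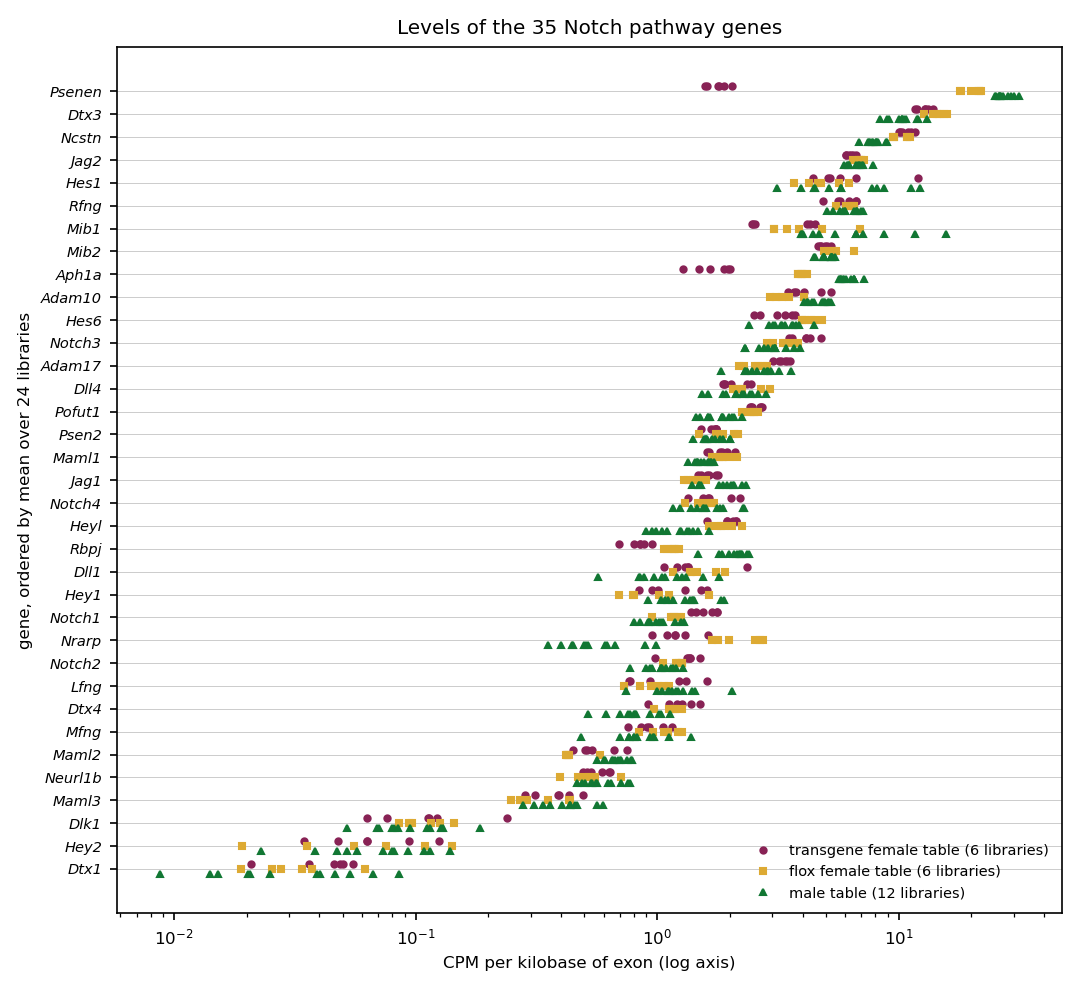
CPM per kilobase of exon (log axis) of the 35 Notch pathway genes in each of 24 libraries, ordered by their mean; circles are transgene females, squares flox females and triangles males, the 3 deposited tables. Most genes have overlapping points in the 3 tables, while Psenen, Aph1a and Rbpj are lower in transgene females than in the other 2.

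Levels of some members differed between the tables. In transgene females Psenen measured 2.01 to 2.604 CPM, compared with 22.9 to 28.1 in the flox female table and 31.9 to 40.1 for males. The gamma-secretase subunit Aph1a measured 4.43 to 6.88, 13.2 to 14.4 and 19.5 to 24.7 CPM, and the DNA-binding protein Rbpj 8.85 to 12.2, 13.6 to 15.7 and 18.9 to 30.6 CPM in the same order. The 3 sets of libraries did not overlap for these genes. They are also genes whose exons share 50-base words with other genes: 23.4% of the words of Psenen, 39.5% of Aph1a and 10.6% of Rbpj. Partners of these words include genes that do not overlap them, such as Gm12396 for Psenen, Gm15429 for Aph1a and Rbpj-ps3 for Rbpj. Nrarp (77.3% shared), Dll1 (16.1%) and Notch1 (9.11%) share words only with genes overlapping them on the opposite strand. Nrarp was lower in transgene females than in flox females and overlapped males (2.47 to 4.18 against 0.912 to 2.56 CPM). Dll1 overlapped between all tables, and Notch1 was higher in transgene females than in either other table. Hes6, with 0% of its words shared, was also lower in transgene than in flox females (4.55 to 6.74 against 7.16 to 8.70 CPM). Adam17 (4.83% shared) was higher there (21.6 to 25.4 against 15.6 to 20.4 CPM). Both overlapped males. In all, 5 of 35 members were lower and 2 higher in transgene than in flox females, and the share over all genes was not computed. Gapdh, a glycolytic gene with many near-identical copies, is no member but stood at 14.8 to 38.5 CPM in the transgene female table, far below the 4654 to 7874 CPM of flox females and the 5539 to 10120 CPM of males. How reads matching several places were counted is not stated in the labels or processing notes, and its part in these levels was not tested. Sex, genotype and table cannot be told apart across tables, so all tests below compare libraries within a table.

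Calls after tamoxifen were few in single strata, among the members and among all genes. In transgene females 1 of 34 was called, Mib1, where 1.32% of all 14211 genes tested were called. In flox females 0 of 34 were called (background 0.131%), with 1 at an unadjusted p under 0.05 (background 8.65%), and DESeq2 called 1. In transgene males 1 of 34, again Mib1, was called (background 0.889%). In flox males 0 of 34 were called (background 2.89%), with 5 at an unadjusted p under 0.05 (background 17.5%), and DESeq2 called 1. Averaged over the 4 strata, 4 of 34 members were called against a background of 8.83%, where the members' share was 11.8%: Mib1, Dll1 and Dtx3 fell, 8.82% of members (background 4.88% lower), and Pofut1 rose, 2.94% (background 3.95% higher). The median log2 fold change of the 34 was 0.05 in transgene and -0.05 in flox females, 0.03 in transgene and -0.08 in flox males, and 0.03 on average. The same medians over all genes tested were 0.01, 0.00, 0.01, -0.01 and 0.00.

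**Figure D2:**
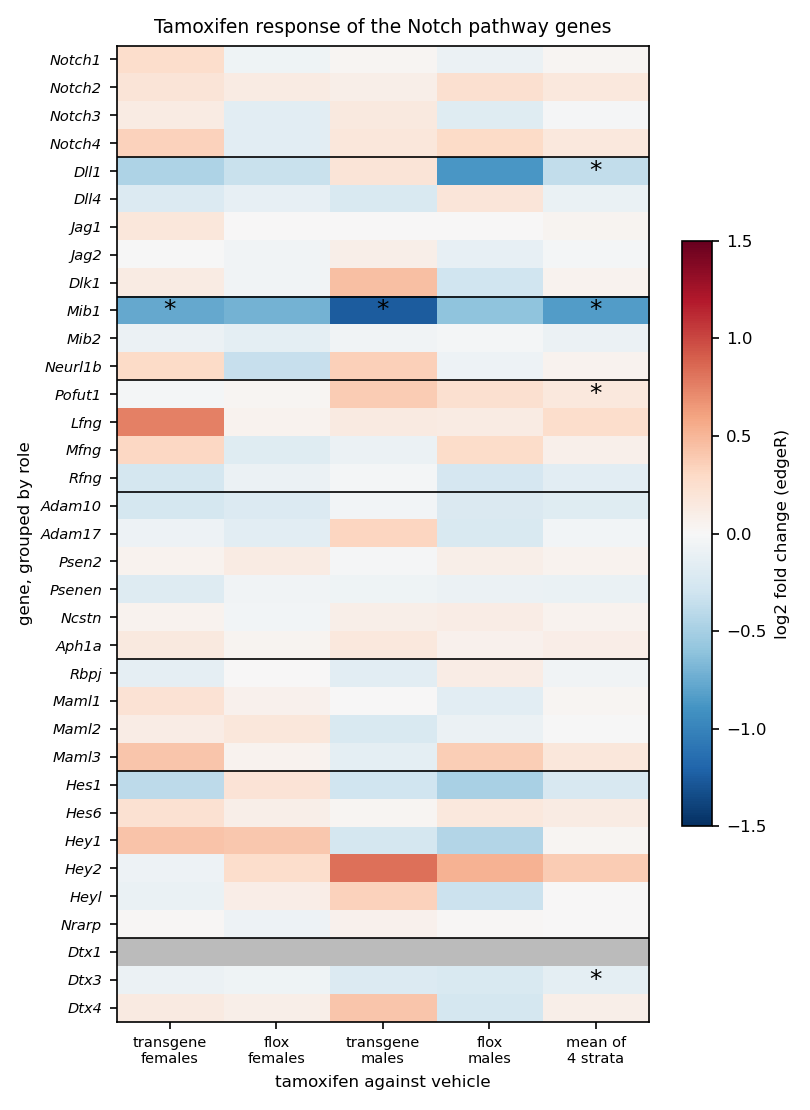
Log2 fold change after tamoxifen (colour, edgeR) of the 35 genes, grouped by role between black lines, in each of 4 strata of 3 against 3 libraries and averaged over them; a star marks an adjusted p under 0.05 and grey the untested Dtx1. Mib1 has the deepest falls in 4 of the 5 columns, with values of -0.77, -0.71, -1.25, -0.61 and -0.84.

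Mib1 encodes Mind bomb 1, the ubiquitin ligase that drives endocytosis of Delta and Jagged ligands in the signal-sending cell, and it lies on chromosome 18. In transgene females it measured 49.1, 46.9 and 45.8 CPM after vehicle and 27.1, 27.8 and 27.3 after tamoxifen. In flox females it measured 75.3, 42.4 and 52.7 CPM after vehicle and 37.9, 33.2 and 33.4 after tamoxifen. Every tamoxifen library of either female genotype lay below every vehicle library of that genotype. In transgene males the values were 95.0, 127 and 171 CPM after vehicle and 43.4, 73.0 and 48.2 after tamoxifen. In flox males they were 72.5, 77.9 and 59.5 CPM against 50.9, 43.3 and 44.0. The male groups were separate too, and the transgene males labelled vehicle by title spread the most.

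The fall of Mib1 was called in transgene females (log2 -0.77 ± 0.07 SE, adjusted p = 0.0039) and in transgene males (-1.25 ± 0.23, adjusted p = 0.0319, edgeR). In flox animals the change was -0.71 ± 0.20 in females (adjusted p = 0.402) and -0.61 ± 0.23 in males (adjusted p = 0.189, edgeR). When each of the 12 male libraries was left out in turn, the call in transgene males held only without transgene vehicle 1, transgene tamoxifen 2 or flox vehicle 3, with edgeR adjusted p from 0.0112 to 0.14 over the 12 fits. The average over the 4 strata was -0.84 ± 0.11 (adjusted p = 4.08e-05), and without the transgene males it was -0.70 (adjusted p = 0.000103, edgeR). No call separated the genotypes: the transgene response less the flox response was -0.06 in females (adjusted p = 0.974) and -0.64 in males (adjusted p = 0.629), and -0.37 on average (adjusted p = 0.701). No member was called in these 3 interactions, where 0%, 0.0128% and 0.012% of all genes were called, and 4, 4 and 2 members had an unadjusted p under 0.05, where 7.54%, 8.25% and 8.01% of all genes did. DESeq2 called 0 members in each of the 3. The male less the female response of Mib1 was -0.18 (adjusted p = 0.808).

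Mib1 was the only member of 34 whose tamoxifen libraries lay below the vehicle libraries in all 4 strata, a count that includes the transgene males. Over all 16670 genes tested, 42 genes, 0.252%, showed that pattern, and 0 members and 31 genes, 0.186%, showed its opposite. Of the words in Mib1 exons, 0.109% occur in other genes. Mib2, a second Mind bomb ligase, ranged from 21.1 to 31.0 CPM over the 24 libraries and was negative in all 4 strata, with groups separate in 1 and an average of -0.08. The third ligase of the set, Neurl1b, a Neuralized protein, measured 3.37, 3.23 and 3.12 CPM after vehicle and 4.04, 3.99 and 3.73 after tamoxifen in transgene females. In flox females it measured 4.49, 3.50 and 3.22 against 2.51, 2.97 and 3.31 CPM, overlapping. It had the smallest p of the members in the female interaction (log2 0.64 ± 0.23, adjusted p = 0.524) and in the averaged interaction (0.52 ± 0.18, adjusted p = 0.493, edgeR), neither called. In transgene males it was 3.09, 3.41 and 3.18 against 4.79, 3.56 and 3.98 CPM, separate and higher, and in flox males 4.08, 4.87 and 2.94 against 4.49, 3.53 and 3.38, overlapping.

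**Figure D3:**
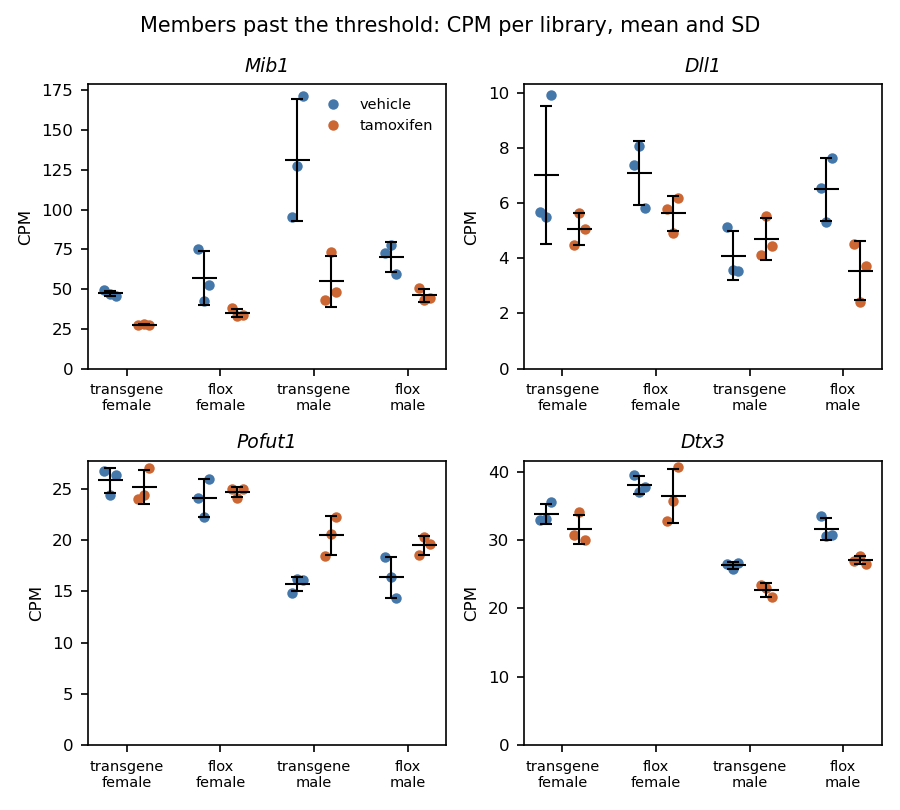
CPM of the 4 members called by edgeR in any comparison, Mib1, Dll1, Pofut1 and Dtx3, in each library (points: blue vehicle, orange tamoxifen) with the mean and SD of 3 libraries (black), by sex and genotype. Mib1 is lower after tamoxifen in all 4 strata, from 45.8 to 49.1 down to 27.1 to 27.8 CPM in transgene females, while Pofut1 is higher in males only by non-overlapping points.

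Among the ligands only Dll1, Delta-like 1, was called by edgeR in any comparison, and only in the average; DESeq2 and edgeR without the filter also called it in flox males. It measured 5.68, 5.51 and 9.93 CPM after vehicle and 4.49, 5.64 and 5.08 after tamoxifen in transgene females, and 7.38, 8.06 and 5.81 against 5.78, 4.93 and 6.18 CPM in flox females. Both pairs of female groups overlapped. In flox males it was 6.55, 5.33 and 7.63 CPM after vehicle and 4.54, 2.405 and 3.71 after tamoxifen, which did not overlap. In transgene males, at 5.12, 3.59 and 3.56 against 4.11, 5.54 and 4.43 CPM, the groups overlapped. The averaged change was -0.37 ± 0.12 (adjusted p = 0.0488), and without transgene males it was -0.56 (adjusted p = 0.0146, edgeR). Dll1 also had the smallest p of the members in flox males (-0.88 ± 0.24, adjusted p = 0.0677) and in the male interaction (1.08 ± 0.34, adjusted p = 0.385), neither called by edgeR. The averaged call was lost in 16 of 24 fits that left out 1 library, and 16.1% of the words in Dll1 exons also lie in the overlapping gene A930024N18Rik on the other strand, whose reads cannot be told apart without strand. Dll4, Jag1, Jag2 and Dlk1 were not called by edgeR in any comparison, and Jag2 held within 41.3 to 54.4 CPM over the 24 libraries.

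Pofut1 and Dtx3 were called in opposite directions in the average. Pofut1 adds O-fucose to Notch receptors. It measured 14.9, 16.2 and 16.1 CPM after vehicle and 18.4, 20.6 and 22.3 after tamoxifen in transgene males, and 18.3, 16.4 and 14.3 against 18.5, 20.3 and 19.6 CPM in flox males. The male groups did not overlap in either genotype. In females the groups overlapped, at 26.8, 24.4 and 26.3 against 24.01, 24.4 and 27.1 CPM with the transgene and 24.1, 22.3 and 25.9 against 24.9, 24.1 and 24.9 CPM without it. The average was 0.16 ± 0.05 (adjusted p = 0.0326), and without transgene males 0.08 (adjusted p = 0.377, edgeR), so that the call was lost without them. The male less the female response was 0.32 ± 0.09 (adjusted p = 0.119), the smallest p of the members in that comparison, in which 0 of 34 members and 0.708% of all genes were called and 2 members had an unadjusted p under 0.05 (background 12%), with 0 called by DESeq2.

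Dtx3, a Deltex-family ubiquitin ligase, measured 26.5, 25.7 and 26.6 CPM after vehicle and 23.5, 23.1 and 21.6 after tamoxifen in transgene males. In flox males it was 33.6, 30.6 and 30.8 against 27.0, 27.7 and 26.5 CPM. The groups were separate in both male genotypes, and the transgene groups lay below the flox groups of the same treatment. In transgene females, at 33.0, 33.1 and 35.6 against 30.8, 34.0 and 30.0 CPM, and in flox females, at 39.5, 37.0 and 37.7 against 32.8, 35.8 and 40.6 CPM, they overlapped. The average was -0.15 ± 0.04 (adjusted p = 0.0149), and without transgene males -0.13 (adjusted p = 0.0926, edgeR). Of the remaining glycosyltransferases, Rfng averaged -0.16 ± 0.05 (adjusted p = 0.0566), or -0.20 without transgene males (adjusted p = 0.0153, edgeR), and was separate and lower in 2 strata. Lfng, whose promoter is shown above, measured 1.93, 2.33 and 1.94 CPM after vehicle and 3.30, 4.02 and 3.07 after tamoxifen in transgene females (log2 0.76 ± 0.18, adjusted p = 0.0847, edgeR), separate but not called by edgeR; DESeq2 and edgeR without the filter called it. Its groups overlapped elsewhere, at 2.53, 2.13 and 2.35 against 2.69, 2.81 and 1.82 CPM in flox females, 2.88, 3.48 and 1.86 against 3.19, 3.05 and 2.79 in transgene males, and 3.60, 2.81 and 2.99 against 2.63, 5.11 and 2.49 in flox males. Mfng was not called by edgeR in any comparison.

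The genes of receptor cleavage and of the nuclear complex gave 0 calls in the average. The protease Adam10, which makes the first cut, was negative in all 4 strata with an average of -0.19 ± 0.06 (adjusted p = 0.0594, edgeR), or -0.23 without transgene males (adjusted p = 0.0541, edgeR), and its groups overlapped in every stratum. Psenen was negative in all 4 strata too, averaging -0.10 ± 0.05, and Aph1a positive in all 4, averaging 0.10. These 2 within-table changes are small beside their differences between tables. The Mastermind genes Maml1, Maml2 and Maml3 and Rbpj averaged 0.03, -0.01, 0.17 and -0.05. Ncstn and Psen2, both gamma-secretase subunits, averaged 0.05 and 0.06, and the protease Adam17 -0.04. Across all 34 members, 5 were positive and 6 negative in all 4 strata.

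The receptors were not called by edgeR in any comparison; DESeq2 and edgeR without the filter called Notch4 between transgene and flox males after tamoxifen. Notch1 measured 20.7, 19.7 and 22.0 CPM after vehicle and 25.2, 25.1 and 24 after tamoxifen in transgene females, which did not overlap (log2 0.27 ± 0.08, adjusted p = 0.134, edgeR). In flox females it was 17.6, 16.6 and 16.2 against 13.6, 17.9 and 16.7 CPM, in transgene males 13.3, 16.9 and 11.4 against 14.5, 14.8 and 13.1, and in flox males 15.02, 18.3 and 13.1 against 17.9, 14.1 and 12.1. These 3 pairs overlapped. Notch2 was positive in all 4 strata, averaging 0.16 ± 0.07 (adjusted p = 0.163, edgeR). Its values were 14.7, 14.5 and 10.5 against 14.3, 16.2 and 14.8 CPM in transgene females and 12.9, 13.1 and 11.4 against 13.7, 13.3 and 13.7 in flox females, the latter separate. In males they were 12.6, 10.1 and 9.72 against 11.3, 10.2 and 12.9 CPM with the transgene and 11.7, 11.2 and 8.32 against 12.3, 13.8 and 11.2 without it. Both male pairs overlapped.

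Notch3 measured 33.3, 33.5 and 28.4 against 34.8, 38.6 and 29.2 CPM in transgene females and 31.1, 27.4 and 26.7 against 28.9, 23.0 and 24.4 in flox females, overlapping. In transgene males, at 22.4, 21.4 and 23.3 against 24.9, 24.5 and 25.0 CPM, the groups were separate and higher after tamoxifen, and in flox males, at 29.8, 31.6 and 18.8 against 25.0, 27.7 and 18.7, they overlapped. The average for Notch3 was -0.02. Notch4, an endothelial receptor, measured 13.2, 10.8 and 13.1 against 16.3, 17.7 and 12.4 CPM in transgene females and 13.6, 12.4 and 13.9 against 11.9, 13.4 and 10.5 in flox females. In males it was 10.03, 12.8 and 9.39 against 12.5, 11.2 and 12.6 CPM with the transgene and 11.8, 15.1 and 14.6 against 18.3, 18.4 and 14.3 without it, and all 4 pairs overlapped.

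The genes listed as targets or feedback genes, several of them known readouts of receptor activity, gave 0 calls by edgeR in any comparison. DESeq2 called Hes1 between transgene and flox males after tamoxifen, as did edgeR without transgene tamoxifen replicate 3. Hes1, a repressor of differentiation genes, measured 10.4, 10.6 and 24.5 CPM after vehicle and 13.6, 11.6 and 8.998 after tamoxifen in transgene females. One vehicle library, replicate 3, stood far above the other 2 of its group. Flox females held 11.5, 8.65 and 7.52 against 9.75, 9.45 and 12.7 CPM, transgene males 15.8, 24.9 and 17.8 against 23.0, 16.5 and 8.04, and flox males 11.8, 11.8 and 10.5 against 9.15, 9.05 and 6.36. Only the flox males were separate, and the averaged change was -0.25. Hey1 measured 2.76, 3.10 and 4.27 against 5.23, 3.29 and 4.94 CPM in transgene females and 2.26, 3.67 and 2.58 against 3.33, 5.33 and 2.62 in flox females. In males it was 3.51, 6.02 and 4.26 against 3.62, 4.49 and 3.39 CPM with the transgene and 4.55, 4.63 and 6.20 against 3.81, 4.58 and 2.98 without it. The male less the female response of Hey1 was -0.76 ± 0.27 (adjusted p = 0.225, edgeR), and all 4 pairs overlapped.

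Heyl, a Hey-family repressor, measured 10.5, 9.98 and 10.9 against 8.22, 10.8 and 9.93 CPM in transgene females and 9.37, 8.37 and 10.4 against 9.02, 9.67 and 11.4 in flox females. In males it was 4.59, 5.08 and 6.78 against 6.35, 6.94 and 7.56 CPM with the transgene and 7.23, 8.42 and 5.38 against 6.40, 5.64 and 4.89 without it. All 4 pairs overlapped, and the average was 0.00. Nrarp, a feedback inhibitor of the intracellular domain, measured 2.47, 2.83 and 4.18 against 3.06, 3.35 and 3.07 CPM in transgene females and 6.54, 6.86 and 4.38 against 4.61, 5.14 and 7.08 in flox females. In males it was 0.912, 1.305 and 1.16 against 1.03, 1.14 and 1.34 CPM with the transgene and 1.60, 2.56 and 1.29 against 2.31, 1.73 and 1.57 without it. Its average was 0.00, again with all 4 pairs overlapping. An antisense gene, Gm38287, covers 77.3% of the 50-base words of Nrarp; its own deposited counts came to at most 0.0606 CPM in any library. Hes6 and Hey2 were not called by edgeR either.

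**Figure D4:**
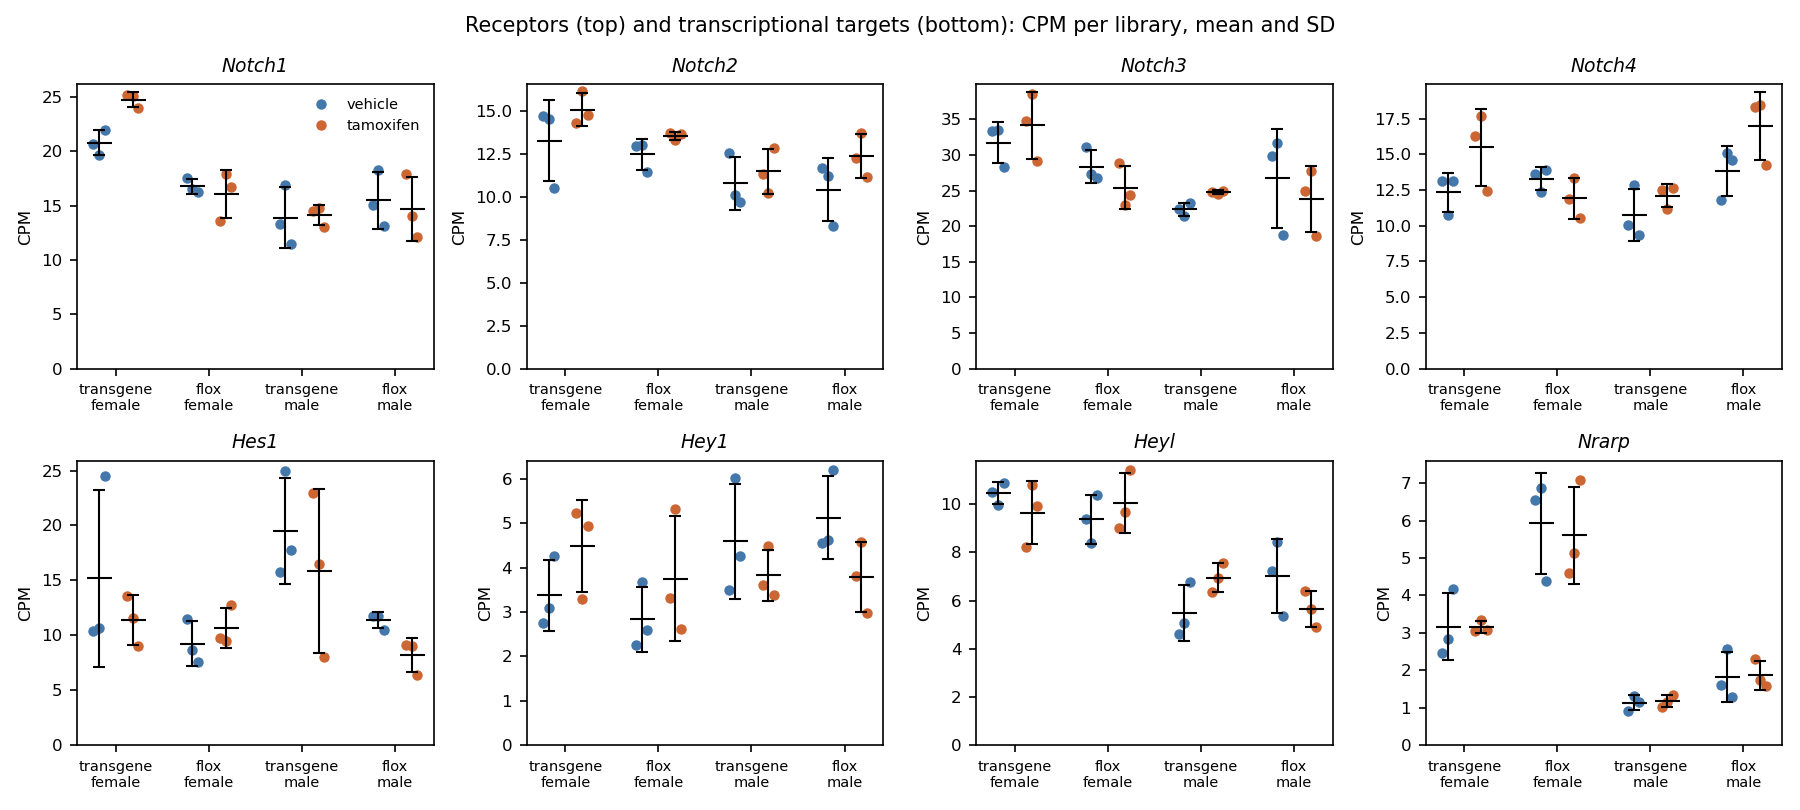
CPM of the 4 receptors (top) and of the targets Hes1, Hey1, Heyl and Nrarp (bottom) in each library (points: blue vehicle, orange tamoxifen) with the mean and SD of 3 libraries (black), by sex and genotype. Vehicle and tamoxifen points overlap in most strata; Notch1 in transgene females, at 19.7 to 22.0 against 24 to 25.2, is an exception.

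The genotypes could be compared at the same treatment in males, whose libraries share a table. After vehicle 0 of 34 members were called against a background of 0.947%, with 7 at an unadjusted p under 0.05 (background 17.2%), and DESeq2 called 1. Mib1 had the smallest p, at 95.0, 127 and 171 CPM with the transgene against 72.5, 77.9 and 59.5 without it (log2 0.89 ± 0.23, adjusted p = 0.0928, edgeR), separate but not called. After tamoxifen 0 of 34 were called against a background of 5.23%, with 6 at an unadjusted p under 0.05 (background 20.8%), and DESeq2 called 2, Hes1 and Notch4. Dtx3 had the smallest p (-0.25 ± 0.08, adjusted p = 0.0708), beside Notch4 (-0.49 ± 0.15, adjusted p = 0.0715). Hes1 differed by 0.95 ± 0.33 (adjusted p = 0.127, edgeR), with groups that overlapped through the transgene library at 8.04 CPM.

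Members were also counted by whether their groups were separate. After tamoxifen 7 members were separate in transgene females, 20.6% of 34 against 22.8% of all genes, and 2 in flox females, 5.88% against 14.2%. In transgene males 8 members were separate, 23.5% against 13.6%, and in flox males 9, 26.5% against 27.9%. Transgene and flox males were separate for 5 members after vehicle, 14.7% against 22.7%, and for 8 after tamoxifen, 23.5% against 27.7%. The members' share was above that of all genes only in transgene males, whose vehicle libraries carry the conflicting labels.

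A wider list of 43 further genes of the pathway, of which 37 were tested, gave 2 higher and 8 lower calls in the average, Numb and Numbl among them. These are 5.41% and 21.6% of the 37, beside 3.95% and 4.88% of all genes. The list was chosen with earlier results of these data known, so these shares are no independent result. In single strata 1 was called in transgene females, 2.7% against 1.32% of all genes, and 2 in flox males, 5.41% against 2.89%. Cir1, an RBPJ corepressor, rose by 0.24 ± 0.06 (adjusted p = 0.0184), and in flox males from 8.23, 9.12 and 11.6 to 14.3, 14.4 and 14.4 CPM (0.57 ± 0.13, adjusted p = 0.0344, edgeR), the latter lost in 6 of 12 fits without 1 library (adjusted p 0.0127 to 0.157). Fbxw7, the ubiquitin ligase subunit that marks the intracellular domain for destruction, fell in transgene females from 32.8, 34.8 and 36.6 to 24.3, 26.5 and 26.7 CPM (-0.41 ± 0.08, adjusted p = 0.0446, edgeR), a call lost in 6 of 6 fits that left out 1 library (adjusted p 0.0764 to 0.128). It fell in flox males from 31.1, 31.4 and 33.8 to 21.3, 23.1 and 24.5 CPM (-0.49 ± 0.12, adjusted p = 0.0488, edgeR), lost in 8 of 12 such fits (adjusted p 0.00984 to 0.156). Its average was -0.28 ± 0.06 (adjusted p = 0.00328, edgeR). The corepressor Ctbp2 (-0.28), the Neuralized ligase Neurl1a (-0.25), the corepressor Spen (-0.15) and the coactivator Ep300 (-0.18) fell in the average, with adjusted p from 0.0018 to 0.0485 by edgeR. Without transgene males Spen was no longer called (adjusted p = 0.1), while Cir1 (0.34), Fbxw7 (-0.34), Ctbp2 (-0.30), Neurl1a (-0.21) and Ep300 (-0.19) still were by edgeR. Of the 10 genes called, Fbxw7 was called in 2 single strata and Cir1 in 1.

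Markers of cell types that use Notch were detected, in that no marker of the lists was at 0 in all libraries, which is a low bar. The median was under 1 CPM for 3 of 9 satellite cell and 3 of 10 immune markers, and for 0 of 11 endothelial markers. The summed 11 endothelial markers ranged from 260.5 to 444.2 CPM. The summed 10 markers of pericytes and smooth muscle ranged from 604.4 to 818.4 CPM. Both sums overlapped between vehicle and tamoxifen in all 4 strata. Counts of the second sum came mostly from Abcc9 (235907 over 24 libraries) and Rgs5 (174272), with 30243 for the next marker, Acta2. The 9 satellite cell markers summed to 59.9 to 67.1 CPM after vehicle and 56.7 to 59.5 after tamoxifen in transgene females. Their sums overlapped in the other 3 strata. Most counts of this sum came from Cdh15 (21118 over 24 libraries) and Spry1 (13757), against 2248 for Pax7, so it says little of the other markers. The 10 immune markers summed to 57.4 to 85.5 against 48.8 to 56.8 CPM in flox males and overlapped elsewhere. Of the 9 satellite cell markers, the average called Msc higher (0.72, adjusted p = 0.00945, edgeR). Scx was called higher among the 7 tendon markers (0.50, adjusted p = 0.00143, edgeR). Kdr was called lower among the 11 endothelial markers (-0.48, adjusted p = 0.0478, edgeR). Cd68 was called lower among the 10 immune markers (-0.64, adjusted p = 0.0446, edgeR). No other listed marker was called in this average, in which 8.83% of all genes were. These marker calls were not repeated without transgene males, and Msc had only 497 counts over 24 libraries. The 9 slow and oxidative fibre genes summed to 475.8 to 7783 CPM in transgene males against 5041 to 6689 in flox males. Within that list Myh2 had the most counts (2343060 over 24 libraries), above Myh7 (880695). The part of these differences in the members' changes was not tested.

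After the mean of each group was removed, Notch1 moved with the endothelial markers over the 24 libraries (Pearson r = 0.75, permutation p = 0.00372, adjusted p = 0.0258; Spearman rho = 0.77, permutation p = 0.001, adjusted p = 0.008; two-sided, adjusted over 8 relations). Without the 2 libraries farthest from the median of the marker sum r was 0.68 with an adjusted permutation p of 0.0757, no longer past the threshold. Without the 2 of largest marker deviation it was 0.62 (adjusted permutation p = 0.08504), and within tables it was 0.57 over 6 transgene female, 0.64 over 6 flox female and 0.80 over 12 male libraries. Notch3 moved with the pericyte and smooth muscle markers by Pearson (r = 0.71, permutation p = 0.00645, adjusted p = 0.0258) and less clearly by rank (rho = 0.54, permutation p = 0.0228, adjusted p = 0.0784). Its r was 0.68 without the 2 farthest libraries, also at an adjusted permutation p of 0.0757. Flox male vehicle replicates 2 and 3 deviated most from their group mean in these markers, and without them, a check chosen after seeing the data, r fell to 0.45 for Notch3 (adjusted permutation p = 0.1902), so that its size rests on them. Its r was 0.99, 0.49 and 0.68 within the tables in the same order. Jag1, a ligand of smooth muscle, had r = 0.62 (permutation p = 0.03, adjusted p = 0.08) with the same markers, and 0.22, 0.56 and 0.69 within tables, and 0.30 without the same 2 libraries (adjusted permutation p = 0.411). Abcc9 and Rgs5 dominated the sum used for Notch3 and Jag1, and relations to single markers were not tested. The other 5 relations had r from -0.05 to 0.23 and adjusted p from 0.5893 to 0.8833 by permutation. Of these, Notch4, Dll4 and Hey1 were set against the endothelial markers and Heyl against the pericyte and smooth muscle markers. Hes6 was set against the slow and oxidative fibre genes.

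**Figure D5:**
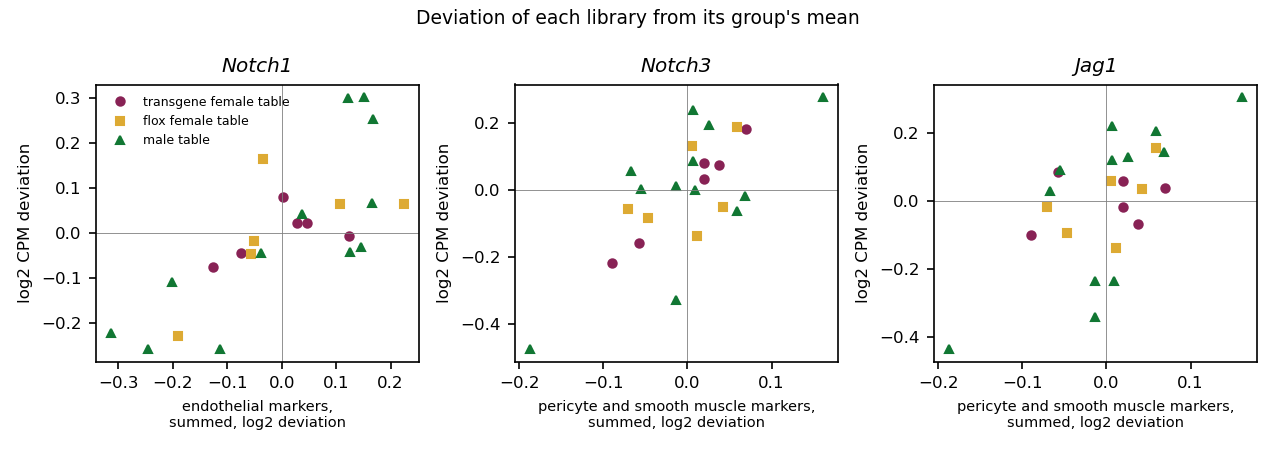
Deviation of each of 24 libraries from the mean of its group (log2): a marker sum on the x axis and Notch1, Notch3 or Jag1 on the y axis, with symbols for the 3 tables. Points rise from left to right in each panel, with r = 0.75 for Notch1 and endothelial markers, 0.71 for Notch3 and 0.62 for Jag1 with pericyte and smooth muscle markers.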

How the data were processed

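Total RNA of mouse gastrocnemius was sequenced in 24 libraries. The authors deposited raw read counts per gene in 3 tables, made with STAR and featureCounts, with limma also named and the builds GRCm38 and mm10, per the submitters' processing notes; versions, library kit, strand setting and the counting of reads that match several places are not stated there. Groups were taken from the labels. Gene positions and exon lengths come from a GENCODE annotation of GRCm38.

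Counts were analysed in R 4.3.3 with edgeR 4.0.16: filterByExpr (minimum count 10, minimum total 15), TMM scaling, robust quasi-likelihood F-test, Benjamini-Hochberg adjustment over all genes and a threshold of 0.05. Female comparisons used the 6 libraries of their table, male ones all 12, female interactions 12, and averages over strata all 24. SE is the log2 fold change divided by the square root of F. Relations used log2 CPM (prior count 2) and 100000 permutations within groups. The 24 pairs of replicates differed by more than sampling noise (chi-square per degree of freedom 9.22 to 117). Alternatives were RLE scaling, DESeq2 1.42.0, limma-voom 3.58.1, no filter, other sets of libraries, a replicate block and leaving out each library; the procedure was tested on simulated data. Library by library values are given for members called in any comparison, those with the smallest p in each, the receptors and the targets Hes1, Hey1, Heyl and Nrarp; of the further pathway genes, Numb, Numbl and those called are named, except some that are not reported here. Lfng values were added after the data were seen. The members and lists were chosen with earlier results of these data known.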

Additional observations from a re-analysis of the deposited data

How the results depend on the processing

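Mib1 kept its direction and its call in the averaged response under all 32 alternatives run (log2 -1.01 to -0.65, adjusted p up to 0.0141) and in transgene females under all 11. In transgene males its call was lost in 9 of 12 fits without 1 library, without the filter (adjusted p = 0.113) and in a fit of only the 6 libraries compared (adjusted p = 0.237). With DESeq2 the members called were 2 in transgene females (Lfng and Mib1), 1 in flox females (Mib1), and 1 in flox males (Dll1), 1 between vehicle males (Mib1) and 2 between tamoxifen males (Hes1 and Notch4). Without the filter they were 2, 1, 0 in transgene males, 1, 1 between tamoxifen males and 2 in the average. With 6 libraries they were 0 in transgene males and 1 in flox males. Leaving out 1 library gave 2 to 5 members in the average (2, Dtx3 and Mib1, without transgene female tamoxifen 3, flox female vehicle 1 or 2, flox female tamoxifen 3, or flox male tamoxifen 2 or 3), 0 to 1 in transgene males and 0 to 1 between tamoxifen males (Hes1, without transgene tamoxifen replicate 3). The averages over flox strata only and transgene strata only, chosen after seeing the data, called 2 (Dll1 and Mib1) and 1 (Mib1).

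Dll1 lost its averaged call in 16 of 24 fits without 1 library, Pofut1 in 10 and Dtx3 in 0. Of the further pathway genes, Fbxw7 lost its call in transgene females in 6 of 6 such fits and in flox males in 8 of 12, Cir1 in flox males in 6 of 12, and in the average Spen in 19 of 24. In flox females, deviations from the group means gave same-numbered correlations of -0.2, -0.033 and -0.101, and the others ran from -0.0746 to 0.178. No pairing by replicate number was seen, but with 3 libraries per group this check cannot exclude one. With a replicate block 0 members and 15 genes were called, against 0 and 19. Counts over all genes moved more: DESeq2 called 679, 145, 328 and 871 genes after tamoxifen in transgene and flox females and transgene and flox males, 601 and 1312 between vehicle and tamoxifen males, 45, 79 and 26 in the female, male and averaged interactions and 312 between the sexes. No filter gave 941 in transgene and 329 in flox females, 221 in transgene males, 327 between vehicle males, and 20, 38 and 6 in the interactions. limma-voom gave 10 in flox females and 0 in the male interaction, RLE 1 in the female interaction, a fit of 12 females 417 in transgene females, and 6 libraries 27 in transgene and 917 in flox males. The averages without transgene females, over flox and over transgene strata called 806, 660 and 261. Without 1 library counts ran from 37 to 215 in transgene and 3 to 87 in flox females, 68 to 151 in transgene males, 143 to 644 in flox males, 44 to 204 between vehicle males, 280 to 997 between tamoxifen males, 0 to 2, 2 to 8 and 1 to 6 in the interactions and 82 to 209 between the sexes.

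Relations to markers changed sign for Notch4 within flox females (r = -0.46), Dll4 without the 2 farthest libraries (-0.0026) and within transgene females (-0.91), Hey1 within males (0.28) and without flox male vehicle libraries (0.11), Heyl without those libraries or the 2 of largest marker deviation (-0.38), within transgene females (-0.0196) and flox females (-0.99), and Hes6 within flox females (-0.67). The settings without flox male vehicle libraries and without the 2 of largest marker deviation were chosen after seeing the data. The cause of these changes was not tested. Members with few counts, such as Dtx1, Hey2 and Dlk1, are limited by depth.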
